A study of Mus musculus with 21 samples.

Results

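The transcripts described here encode the core of MHC class I and class II antigen presentation, read as whole-muscle RNA from mice that differed in treadmill training. The members were the rows of the gene count table that carried the symbols H2-K1, H2-D1, B2m, Tap1, Psmb8 and Psmb9 on the class I side and H2-Aa, H2-Ab1, H2-Eb1 and Cd74 on the class II side. These are 10 of the 40853 genes in the table, and 10 of 10 were among the 16129 genes that passed the low-count filter. The rule names gene symbols and uses no measured value, although the genes were picked when earlier results of these data were known.

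The mice were females of the inbred strain C57BL/6NJ, aged 10 weeks when the protocol began, and 1 library came from each mouse. Active mice (n = 7) ran on a treadmill for 6 weeks, 5 days per week, in sessions that grew to 40 min including a slower warm-up, with the main run at about 70% of their maximal speed. Activity Reduction mice (n = 7) followed the same training for 4 weeks and were then left inactive for 2 weeks, and Inactive mice (n = 7) were not trained during the 6 weeks. Mice of every group ran graded maximal tests, and tissue was taken 48 to 72 h after the last of them, so the Inactive group was untrained but not free of running. The RNA came from the whole medial belly of the gastrocnemius, a mixed calf muscle, as poly(A) libraries. In such bulk RNA, fewer cells of a type and less RNA per cell cannot be told apart.

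Class I molecules sit on nearly all nucleated cells. The proteasome cuts cytosolic proteins into peptides, the TAP transporter carries the peptides into the endoplasmic reticulum, and a heavy chain folded with beta-2-microglobulin carries them to the surface for CD8+ T cells. Class II molecules are made mainly by dendritic cells, B cells and macrophages, where alpha and beta chains first bind the invariant chain and later a peptide from the endocytic route for CD4+ T cells. Interferon gamma raises both sets, class I through NF-kB, IRF and NLRC5 sites and class II through the coactivator CIITA. Both kinds of promoter carry a module of X and CCAAT-like boxes, and resting muscle fibers are known for low class I and little class II on their surface.

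The stretches of promoter below are shown because they hold the letters that set the class I heavy chain genes apart from most promoters and the letters that the class I and class II genes share. Promoters from RefSeq (table build GRCm38.p6) were examined for 8 of the 10 members. H2-Ab1 had no entry, and Cd74 was left out of the search. Motifs were searched on both strands in the 250 bases before the start, and the stretches were placed on GRCm39 by exact match. Capitals mark the motifs found. The first pair of sequences runs from the NF-kB site of the classical enhancer A, the first run of capitals, to an interferon response element core, GAANNGAAA, read here on the other strand. It lies 111 to 82 bases before the start of H2-K1 (chr17:34219403-34219432, minus strand) and 171 to 142 bases before the start of H2-D1 (chr17:35481899-35481928, plus strand).
H2-K1: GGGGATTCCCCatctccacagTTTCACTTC
H2-D1: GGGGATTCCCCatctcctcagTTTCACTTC
The stretches were identical at 29 of 30 bases, and the difference was A18T, counted from 1 at the 5′ end with the base of H2-K1 first. The NF-kB letters were in 10 of 32851 promoter windows of the same length (0.0304%), belonging to 9 gene symbols, and the interferon response core was in 6.31%. In GENCODE, longer transcripts of H2-D1 begin upstream and the stretch is exonic in them.

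The class II stretches lie before the RefSeq starts of H2-Aa (chr17:34506841-34506871, minus strand) and of H2-Eb1 (chr17:34524749-34524810, plus strand), each beginning with the X2 box core TGACG or the X box core AGCAAC. In GENCODE, H2-Eb1 begins further upstream, at 34504236, so its stretch lies inside the annotated gene. The H2-Aa stretch ends in the inverted CCAAT box ATTGG, and the H2-Eb1 stretch holds ATTGG inside and ends in CCAAT, the same letters on the other strand.
H2-Aa: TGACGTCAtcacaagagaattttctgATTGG
H2-Eb1: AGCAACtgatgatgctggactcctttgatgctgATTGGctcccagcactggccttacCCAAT
By itself, ATTGG was in 33.8% of all windows, TGACG in 17.8% and AGCAAC in 12.2%. The core TGACG stood 20 bases before ATTGG upstream of H2-K1, H2-D1 and B2m and 21 bases before it upstream of H2-Aa. A search for TGACG followed by ATTGG at a spacing of 20 to 21 bases, set after these 4 members had been seen, found the pair in 50 of 32851 windows (0.152%), 4 of the 8 members among them. The 200 bases before the start of H2-K1 (chr17:34219322-34219521, minus strand) hold both modules in order.
H2-K1: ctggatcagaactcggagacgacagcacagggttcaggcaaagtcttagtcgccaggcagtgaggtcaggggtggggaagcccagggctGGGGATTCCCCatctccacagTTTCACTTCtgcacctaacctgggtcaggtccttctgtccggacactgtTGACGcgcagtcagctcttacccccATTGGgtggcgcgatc
Tap1 and Psmb9 are transcribed away from each other, with 225 bases between their RefSeq starts and 175 bases shared between their 200-base windows (chr17:34406330-34406504). Psmb8 held TTCNNNGAA, the letters of a STAT site, which was in 7.02% of windows. Upstream here means before the RefSeq start. In GENCODE the 200-base windows of B2m, Tap1, Psmb8 and Psmb9 lie wholly in exons of the same genes. These matches describe letters and not binding.

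**Figure D1:**
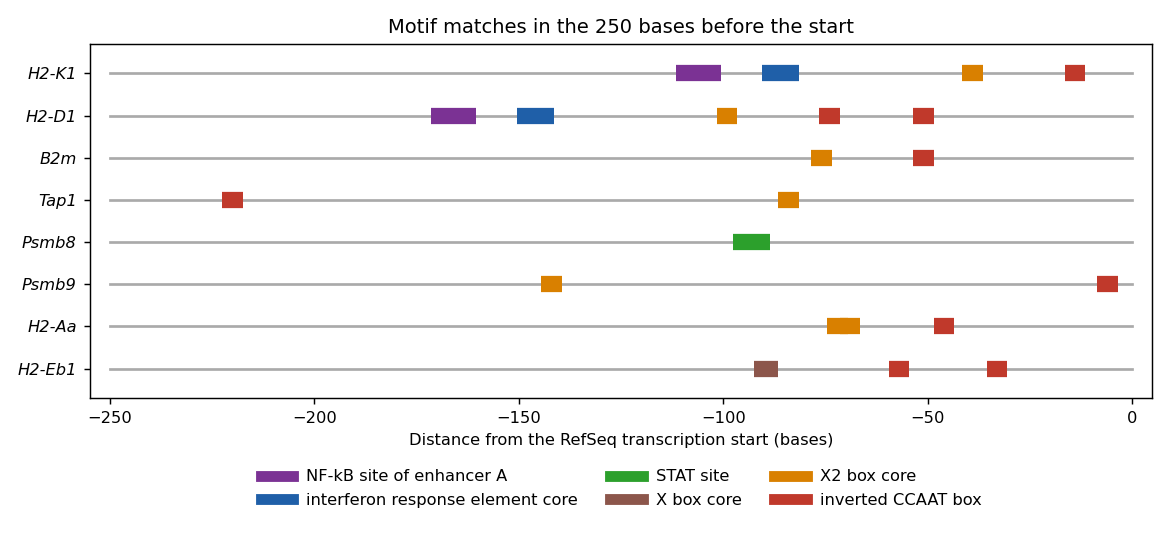
Motif matches (colored blocks, both strands) in the 250 bases before the RefSeq start of the 8 members whose promoters were examined, against distance from the start in bases. The NF-kB and interferon response letters lie together upstream of H2-K1 and H2-D1, and the X2 core precedes the inverted CCAAT box by 20 to 21 bases in H2-K1, H2-D1, B2m and H2-Aa.

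H2-K1 (GRCm39 chr17:34214987-34219321), H2-D1 (chr17:35481691-35486475), Tap1 (chr17:34405996-34416199), Psmb8 (chr17:34416690-34420428), Psmb9 (chr17:34400960-34406738), H2-Aa (chr17:34493404-34506798), H2-Ab1 (chr17:34476663-34488393) and H2-Eb1 (chr17:34504236-34535648) lie in the mouse H2 complex. B2m lies at chr2:121977957-121983594 and Cd74 at chr18:60936899-60945731. Exons of Tap1 and Psmb9 overlap on opposite strands by 743 bp, 12.4% of the exon length of Tap1 and 19.6% of that of Psmb9, and exons of H2-Aa and H2-Eb1 overlap by 118 bp. The strand setting of the counting is not given in the sources used here, so reads in these stretches may be assigned uncertainly. Cd74 shares 88 bp, 3.5% of its exon length, with Mir5107 on the same strand. Mir5107 is also in the count table, so reads there may be assigned uncertainly whatever the strand setting. Of the H2-D1 transcript, 20.3% matched other genes at 95% identity or more over at least 100 bp, H2-K2, H2-Q7 and H2-T22 among them, so its count is uncertain to that extent. The other 9 members had no such match. Identity was taken over each whole alignment, so stretches of higher identity within less similar alignments are not excluded.

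The libraries held 38482455 to 59785132 counts, and the fewest reads on any member in any library were 61, on Psmb9. Of 8 skeletal muscle markers 6 had at least 120059 normalized counts in every library (the lowest in Des), whereas Mylpf had 86.1 to 181 and Myod1 264 to 692. Summed over the 8, the libraries held 131107 to 162366 CPM (counts scaled to a common library total). Transcripts typical of liver (24 genes, Alb and Apoa1 among them) separated 8 libraries with more of them from 13 with fewer, and the division was uneven over groups. The 8 were Active 1 to 5, Activity Reduction 1 and 2, and Inactive 1, which are also the 8 lowest in the running number of the sample labels, so the division and the sample order cannot be told apart. Values are therefore also given within the division, and the part of the liver transcripts in any result was not tested. Over the means of those 8 and 13 libraries, the log2 ratio of the 10 members was 0.06 to 0.39, higher in the 8, with Psmb8 (0.39) and H2-K1 (0.33) at the upper end and Psmb9 (0.06) at the lower.

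Normalized to exon length, the members spanned a wide range of levels in muscle. This length joins all annotated exons of a gene and can exceed that of its canonical transcript, unevenly between genes. It was 4292 against 1128 bp for H2-Aa, 2568 against 1212 bp for H2-Ab1 and 2596 against 1697 bp for H2-Eb1. The order of members close in level therefore depends on the annotation. Over all 21 libraries, B2m averaged 1333 ± 213 (SD) normalized counts per kb, H2-D1 1232 ± 167 and H2-K1 729 ± 129. Class II followed, with Cd74 at 222 ± 49.1 normalized counts per kb, H2-Ab1 at 135 ± 34.3, H2-Eb1 at 116 ± 30.2 and H2-Aa at 60.9 ± 17.2. Psmb8 at 58.9 ± 15.7, Tap1 at 39.1 ± 11.1 and Psmb9 at 26.8 ± 6.78 normalized counts per kb were the lowest. The ranges of B2m and H2-D1 overlapped, as did those of H2-Ab1, H2-Eb1 and H2-Aa, and those of H2-Aa, Psmb8 and Tap1. By contrast, the lowest library of H2-K1 (521 per kb) lay above the highest of Cd74 (332 per kb). Within groups, the SD of the log2 level ran from 0.18 for H2-D1 to 0.37 for H2-Aa, at the 47.5 to 71.1 percentiles of all genes tested.

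The comparison of Active with Inactive mice asks what continued training was accompanied by. The 6 class I transcripts all had higher means in Active muscle, by 1.17 to 1.54 times, whereas the Active means of the 4 class II transcripts were 0.976 to 1.06 times the Inactive means. H2-K1 and H2-D1, the classical heavy chains of this strain, and B2m, their shared light chain, differed by the smaller factors. Tap1, one subunit of the peptide transporter, and Psmb8, an inducible catalytic subunit of the immunoproteasome, differed by the larger ones.

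H2-K1 counted 1660 to 2557 normalized reads in Inactive muscle (median 1920) and 2143 to 3028 in Active muscle (median 2780). Thus 5 of 7 Active libraries lay above every Inactive library, while Active 2 and 6 fell within the Inactive range. The means were 2039 ± 332 (SD, n = 7) and 2642 ± 331 (SD, n = 7), a ratio of 1.30 (two-sided exact permutation test, p = 0.00874). The log2 fold change was 0.38 (SE 0.113; edgeR's quasi-likelihood test, Benjamini-Hochberg adjusted p = 0.263). The difference in H2-K1 was 0.33 on the log2 scale in libraries low in liver transcripts (2 Active, 6 Inactive) and 0.09 among those with more (5 Active, 1 Inactive).

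H2-D1 ran from 2997 to 4174 normalized counts in Inactive muscle (median 3445) and from 3458 to 4629 in Active muscle (median 3886). All 7 Active libraries were above the Inactive median, but only 2 were above the highest Inactive library. The ratio of means was 1.17 (two-sided exact permutation test, p = 0.0274) and the log2 fold change 0.23 (SE 0.0924; edgeR's quasi-likelihood test, adjusted p = 0.406).
B2m ran from 2051 to 3153 normalized counts in Inactive muscle (median 2474) and from 2846 to 3705 in Active muscle (median 3098). Active 4, 1 and 7 were above every Inactive library, and the remaining 4 fell within the upper Inactive range. The ratio was 1.25 (two-sided exact permutation test, p = 0.00932), with a log2 fold change of 0.33 (SE 0.0984; edgeR's quasi-likelihood test, adjusted p = 0.263).

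Tap1 counted 140.5 to 233 normalized reads in Inactive muscle (median 173) and 194 to 359 in Active muscle (median 287). All but Active 3 lay above the highest Inactive library. The means were 183 ± 31.4 (SD, n = 7) and 278 ± 51.8 (SD, n = 7), a ratio of 1.52 (two-sided exact permutation test, p = 0.00233). The log2 fold change was 0.61 (SE 0.165; edgeR's quasi-likelihood test, adjusted p = 0.207), and it was 0.69 and 0.64 in the 13 and the 8 libraries of the liver division.
Psmb8 counted 105 to 199 normalized reads in Inactive muscle (median 156) and 195 to 354 in Active muscle (median 233). Again 6 of 7 Active libraries exceeded every Inactive one, and only Active 6 overlapped, at the edge of the Inactive range. The ratio was 1.54 (two-sided exact permutation test, p = 0.00117, where 0.000583 is the smallest that 7 against 7 allows), and the log2 fold change was 0.63 (SE 0.15; edgeR's quasi-likelihood test, adjusted p = 0.159). Active 4 alone reached 354.
Psmb9, a further inducible proteasome subunit, ran from 60.9 to 104 normalized counts in Inactive and from 74.1 to 142 in Active muscle. Its Active libraries were divided, with 5 above every Inactive library and 2, Active 1 and 3, below the Inactive median. The ratio was 1.34 (two-sided exact permutation test, p = 0.0309) and the log2 fold change 0.43 (SE 0.180; edgeR's quasi-likelihood test, adjusted p = 0.413).

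**Figure D2:**
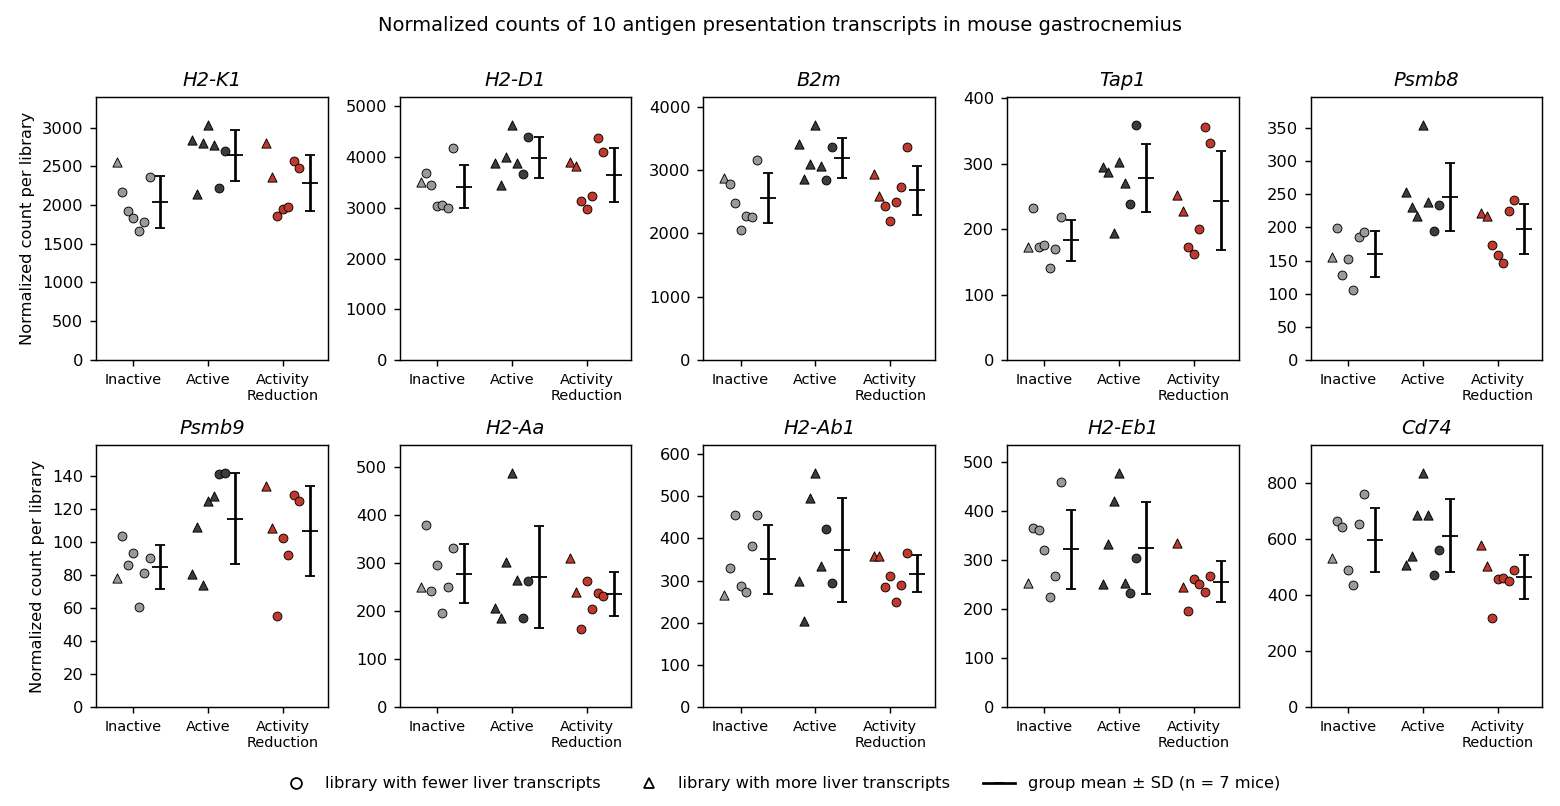
Normalized counts of each member (y axis, from 0) in every library by group, with triangles for the 8 libraries with more liver transcripts and bars for the mean ± SD of 7 mice. In the Tap1 and Psmb8 panels 6 of 7 Active libraries lie above every Inactive library, whereas in the class II panels the Active and Inactive groups cover much the same range.

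Within the liver division, all 6 class I means were higher in Active muscle in both subsets. The log2 differences in the 13 and the 8 libraries were 0.25 and 0.18 for H2-D1, 0.31 and 0.17 for B2m, 0.42 and 0.73 for Psmb8, and 0.72 and 0.40 for Psmb9. The permutation p-values of members were not adjusted over the 30 such tests. No member had groups free of overlap, which held for 0.0434% (higher in Active) and 0.211% (lower) of all genes tested.

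Class II in the same comparison showed small differences against a wide spread. H2-Aa, the alpha chain of the I-A molecule, ran from 197 to 379 normalized counts in Inactive muscle (median 250.05) and from 185 to 487 in Active muscle (median 263). The Active range enclosed the Inactive one. H2-Ab1, the beta chain paired with it, ran from 267 to 456 (median 329) and from 205 to 555 (median 336). H2-Eb1, the I-E beta chain, ran from 225 to 459 (median 321.2) and from 233 to 478 (median 303.7). Cd74, the invariant chain that occupies the groove until a peptide is loaded, ran from 434 to 761 (median 641) and from 472 to 836 (median 562). For all 4 the groups overlapped almost fully, and Active 4 was the highest library. Their log2 fold changes were -0.03 (SE 0.193), 0.10 (SE 0.182), 0.02 (SE 0.169) and 0.04 (SE 0.140) in that order, with adjusted p of 0.893 to 0.985 in edgeR's quasi-likelihood test. With these standard errors, a difference as small as that of H2-D1 was not detectable. In the 13 libraries low in liver transcripts the 4 log2 differences were -0.33, -0.02, -0.31 and -0.23, and among those with more they were 0.21, 0.50, 0.45 and 0.29, so the direction turned with the division. In the 13 libraries, which held 2 Active and 6 Inactive, edgeR's quasi-likelihood test gave these 4 adjusted p of 0.890 to 0.995, and the 8 libraries, with 5 Active and 1 Inactive, were not tested.

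Across all genes, edgeR's quasi-likelihood test called 0 of 16129 genes between Active and Inactive mice (0.0% called) at an adjusted p under 0.05 with a log2 fold change past 0.25, and 0 of the 10 members. At an unadjusted p under 0.05, 6 members were higher in Active muscle, the 6 class I transcripts, and 0 were lower, where 5.9% of all genes tested were higher and 4.51% lower. The median log2 fold change was 0.41 over the class I members, 0.03 over the class II members and 0.01 over all genes tested, 51.6% of which had a positive value. DESeq2's Wald test on the 3 groups called 62 genes (0.216% of those tested, 0.153% higher in Active). Of the members it called 3, H2-K1, Tap1 and Psmb8, with adjusted p of 0.0417, 0.0371 and 0.0185. DESeq2's Wald test on the Active and Inactive libraries alone called 77 genes (0.278%, 0.199% higher in Active) and 4 members, those 3 and B2m, with adjusted p of 0.0200, 0.00381, 0.0121 and 0.0311 for H2-K1, Tap1, Psmb8 and B2m. Over every alternative, including edgeR's quasi-likelihood test and DESeq2's Wald test, the adjusted p ran from 0.0200 to 0.843 for H2-K1, from 0.00381 to 0.842 for Tap1, from 0.0121 to 0.874 for Psmb8 and from 0.0311 to 0.874 for B2m. The calls thus depended on the tool, while the 6 class I log2 fold changes were positive under each alternative run. At an unadjusted p under 0.05, 5 class I members were higher and 0 members lower once the fit held a term for the liver division, where 4.15% of all genes were higher and 4.19% lower. In the 13 libraries low in liver transcripts these counts were 3 and 0, where 2.93% and 2.97% of genes were. With the liver term the log2 fold changes were 0.24 for H2-K1, 0.20 for H2-D1, 0.27 for B2m, 0.65 for Tap1, 0.51 for Psmb8 and 0.48 for Psmb9, with adjusted p of 0.427 to 0.651 in edgeR's quasi-likelihood test.

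**Figure D3:**
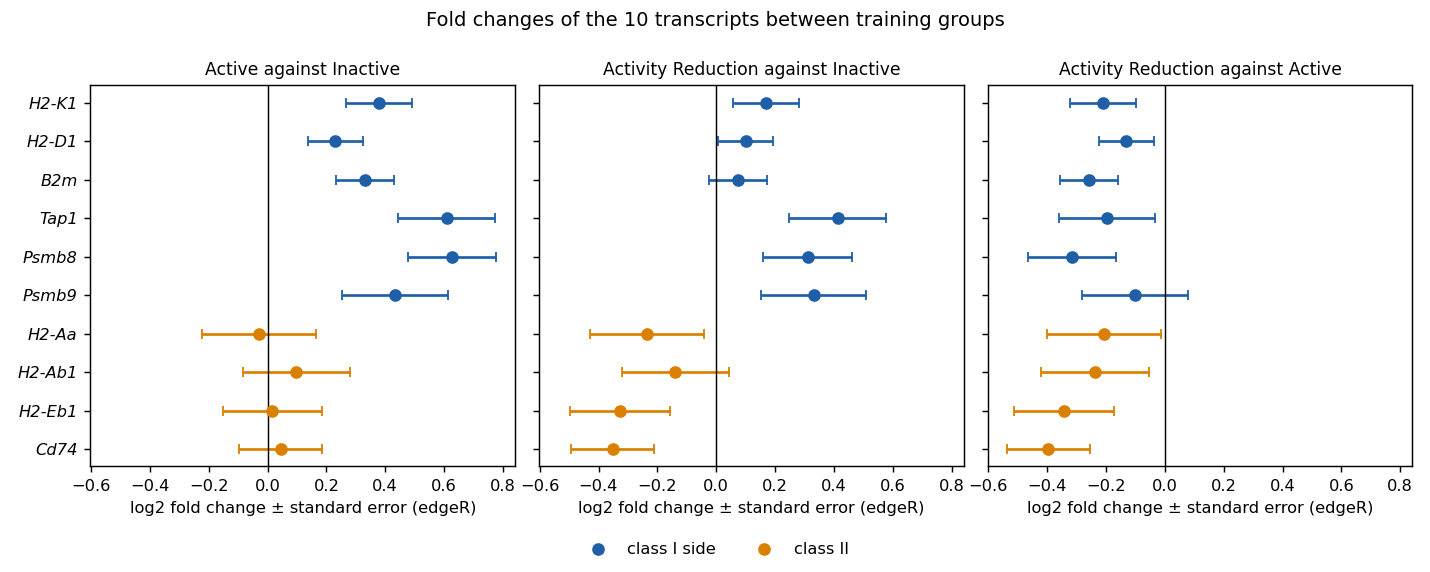
Log2 fold changes of the 10 members (points) with the standard error from edgeR's quasi-likelihood fit (bars) in the 3 comparisons of groups, with class I in blue and class II in orange. The class I values lie between 0.23 and 0.63 for Active against Inactive, and the class II values between -0.35 and -0.14 for Activity Reduction against Inactive.

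The comparisons of Activity Reduction mice ask how muscle differed after 2 weeks without training, against mice that kept training and mice that never trained. They share libraries with each other and with the comparison above, so they are not independent of it. In Activity Reduction muscle the class I transcripts had means between those of Inactive and Active muscle, and the 4 class II transcripts had lower means than in either. No member passed edgeR's adjusted test in either comparison. The counts at an unadjusted p under 0.05 were 2 higher (Tap1, Psmb8) and 1 lower (Cd74) against Inactive, where 4.06% and 3.45% of all genes were higher and lower. Against Active they were 0 higher and 3 lower (B2m, Psmb8, Cd74), where 6.73% and 6.27% were. With the liver division as a covariate the counts were 1 higher (Tap1) and 2 lower (H2-Eb1, Cd74) against Inactive, where 4.53% and 3.54% of all genes were, and 0 and 0 against Active, where 5.52% and 4.96% were. In the 13 libraries low in liver transcripts they were 0 higher and 3 lower (H2-Aa, H2-Eb1, Cd74) against Inactive, where 4.01% and 3.67% of genes were, and 0 and 0 against Active, where 2.01% and 2.25% were, with 2 Active libraries left. edgeR called 2 of 16129 genes (0.0124%) against Inactive and 0 (0.0%) against Active, and DESeq2's Wald test on 3 groups called 21 (0.0732%) and 115 (0.401%), with 0 members in each and no adjusted p for 7 members in the first. DESeq2 on 2 groups called 43 (0.156%) and 139 (0.503%), again with 0 members. All groups overlapped for every member, where 0.0558% of genes lay wholly above and 0.062% wholly below Inactive, and 0.18% and 0.112% above and below Active. Log2 fold changes were above 0 for 6 of 10 members against Inactive (52.2% of all genes) and for 0 of 10 against Active (49.8%).

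Cd74 was the member with the lowest level relative to both other groups. It ran from 320 to 580.0 normalized counts in Activity Reduction muscle (median 462), so that all 7 libraries were below the Inactive median and 1 was below every Inactive library. The mean was 466 ± 78.1 (SD, n = 7), 0.782 times the Inactive mean (two-sided exact permutation test, p = 0.0280) and 0.761 times the Active mean (p = 0.0210, same exact test). The log2 fold changes were -0.35 (SE 0.141; edgeR's quasi-likelihood test, adjusted p = 0.57) and -0.40 (SE 0.141; same edgeR test, adjusted p = 0.231). In libraries low in liver transcripts the difference from Inactive was -0.48 on the log2 scale (5 against 6 libraries), and within those with more it was 0.03 (2 against 1).
H2-Eb1 ran from 197 to 334 normalized counts (median 252), with 1 of 7 libraries above the Inactive median. Its log2 fold changes were -0.33 against Inactive (SE 0.169; edgeR's quasi-likelihood test, adjusted p = 0.707) and -0.34 against Active (SE 0.170; edgeR's quasi-likelihood test, adjusted p = 0.396). H2-Aa and H2-Ab1 had log2 fold changes of -0.24 and -0.14 against Inactive and of -0.21 and -0.24 against Active, each smaller than 1.5 times its standard error. The direction against Inactive turned with the liver division for all 4 class II members: the log2 differences were -0.46 for H2-Eb1, -0.36 for H2-Aa and -0.28 for H2-Ab1 in the 13 libraries, and 0.19, 0.13 and 0.43 in the 8, which held 2 Activity Reduction and 1 Inactive library.

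On the class I side, Tap1 ran from 162 to 356 normalized counts in Activity Reduction muscle (median 228), a range that covered most of the Inactive and the Active ranges. Activity Reduction 6 and 7 stood at 356 and 331, and the other 5 at 162 to 253. The log2 fold change was 0.41 against Inactive (SE 0.165; edgeR's quasi-likelihood test, adjusted p = 0.57) and -0.20 against Active (SE 0.164; edgeR's quasi-likelihood test, adjusted p = 0.637).
Psmb8 ran from 147 to 242 normalized counts (median 217), with 4 of 7 libraries above every Inactive one and 3 below every Active one. Its log2 fold change was 0.31 against Inactive (SE 0.15; edgeR's quasi-likelihood test, adjusted p = 0.664) and -0.32 against Active (SE 0.149; edgeR's quasi-likelihood test, adjusted p = 0.371). The same pair of libraries, 6 and 7, gave the highest values.
B2m was the class I member with the smallest difference from Inactive, with a log2 fold change of 0.07 (SE 0.0984; edgeR's quasi-likelihood test, adjusted p = 0.945). It ran from 2193 to 3358 normalized counts, with 5 of 7 libraries below every Active library. Against Active its log2 fold change was -0.26 (SE 0.0984; edgeR's quasi-likelihood test, adjusted p = 0.269) and the exact permutation p was 0.0204 (two-sided), with log2 differences of -0.23 and -0.22 in the 13 and the 8 libraries of the liver division. H2-K1 and H2-D1 had log2 fold changes of 0.17 and 0.10 against Inactive and of -0.21 and -0.13 against Active. Psmb9 had 0.33 and -0.10. Activity Reduction 3 had the lowest Psmb9 (55.6), H2-K1, H2-Aa, H2-Eb1 and Cd74 of its group. Across all 3 groups together, edgeR's quasi-likelihood F test called 0 of the 10 members and 0 genes at an adjusted p under 0.05, and at an unadjusted p under 0.05 it gave 5 members (H2-K1, B2m, Tap1, Psmb8, Cd74) where 12.2% of all genes did.

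Because Psmb8, Psmb9 and Psmb10 replace Psmb5, Psmb6 and Psmb7 in the immunoproteasome, each was also set against its constitutive counterpart, per exon length. This ratio was chosen after the values had been seen. Exon length here also joins all annotated exons (6025 bp for Psmb7, 1732 bp for Psmb10), so the size of each percentage depends on the annotation. Psmb8 amounted to 3.31% ± 0.765 of Psmb5 in Inactive muscle, 5.32% ± 1.11 in Active muscle and 3.93% ± 0.851 in Activity Reduction muscle (SD, n = 7 each). The Active range of 3.97 to 7.34% and the Inactive range of 2.13 to 4.26% overlapped only slightly. The difference gave p = 0.00175 for Active against Inactive and p = 0.0175 for Activity Reduction against Active in two-sided exact permutation tests, or 0.0157 and 0.0524 adjusted over 9 such comparisons. Psmb10 was 13.4% ± 1.24, 15.8% ± 1.68 and 14% ± 1.26 of Psmb7 in the same order, with p = 0.00874 for Active against Inactive (exact permutation test, 0.0393 adjusted). Psmb9 was 0.948% ± 0.165, 1.29% ± 0.330 and 1.11% ± 0.271 of Psmb6, with p = 0.0350 for Active against Inactive (exact permutation test, 0.0713 adjusted). Activity Reduction against Active gave p = 0.0396 for Psmb10 and 0.276 for Psmb9 (exact permutation test, 0.0713 and 0.311 adjusted), and against Inactive the 3 ratios gave p of 0.182 to 0.387 (exact permutation test, 0.251 to 0.387 adjusted). The constitutive genes themselves had log2 fold changes of -0.06 for Psmb5, -0.01 for Psmb6 and -0.04 for Psmb7 in Active against Inactive. In Activity Reduction against Active they had 0.13, 0.10 and 0.09, of which Psmb5 and Psmb7 were higher at an unadjusted p under 0.05, so the lower ratios there also hold higher denominators. Psmb8 alone gave p = 0.0559 in that comparison (two-sided exact permutation test). Among the 13 libraries with fewer liver transcripts each ratio kept its direction, and the p-values of Active against Inactive were 0.0714 to 0.214 (2 against 6 libraries, exact permutation test).

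**Figure D4:**
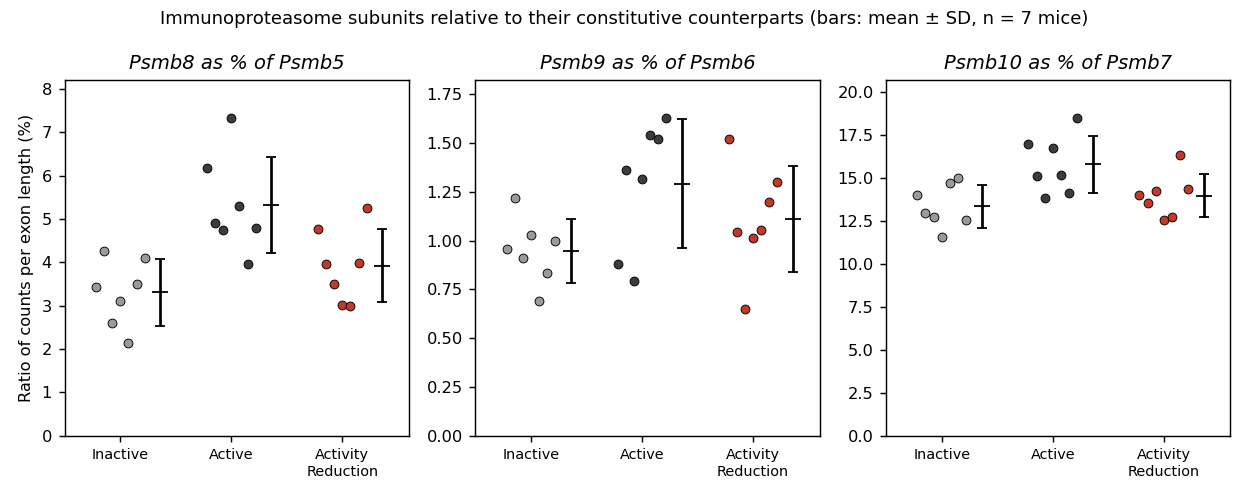
Ratio in percent of each immunoproteasome subunit to the constitutive subunit it replaces, both per exon length, in every library by group, with the mean ± SD of 7 mice. The Psmb8 to Psmb5 ratio lies at 3.97 to 7.34% in Active and at 2.13 to 4.26% in Inactive libraries.

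The members also varied together between mice of the same group. After the group mean was removed from log2 normalized counts, all 45 pairs had a positive Pearson r over 21 libraries. Within class I the 15 pairs had r of 0.29 to 0.86 (median 0.67), and 12 of them had an adjusted p under 0.05 (permutation test, Benjamini-Hochberg over 45 pairs). Within class II the 6 pairs had r of 0.55 to 0.81 (median 0.71), and 6 of 6 were under 0.05. Between the classes the 24 pairs had r of 0.01 to 0.67 (median 0.46), and 9 were under 0.05. Without removal of the group mean these counts were 14, 6 and 0. The permutations ran freely over all 21 libraries, across groups and the liver division. The p-values after removal of the group mean may therefore be too small. Any difference that follows the liver division stays in these r, because only the group mean was removed. In the libraries low in liver transcripts the median r was 0.76 within class I, 0.63 within class II and 0.52 between the classes. Among those with more it was 0.53, 0.79 and 0.44. Pairs drawn from all genes were not measured, so whether the members varied together more than other genes was not tested.

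H2-D1 and B2m, heavy and light chain, had the closest relation (r = 0.858, permutation p = 1e-05, adjusted 0.00015; rho = 0.861, permutation p = 1e-05, adjusted 0.000225). That p of 1e-05 is the smallest that the permutations can give. Without the 2 libraries farthest from the median r was 0.803, and it was 0.878 and 0.770 in the 13 and the 8 libraries of the liver division. H2-Aa and Cd74 led the class II pairs (r = 0.814, permutation p = 1e-05, adjusted 0.00015; rho = 0.796, permutation p = 3e-05, adjusted 0.000337). Here r was 0.738 without the 2 farthest libraries, and 0.728 and 0.932 within the division. Tap1 and H2-Ab1 had no detectable relation (r = 0.0112, permutation p = 0.962, adjusted 0.962; rho = 0.0883, permutation p = 0.701, adjusted 0.701), and r was -0.0128 without the 2 farthest libraries. Psmb9 with B2m (r = 0.291, permutation p = 0.203, adjusted 0.217; rho = 0.301, permutation p = 0.183, adjusted 0.201) was the weakest pair within class I. H2-K1 with Tap1 (r = 0.566, permutation p = 0.00834, adjusted 0.0171; rho = 0.594, permutation p = 0.00546, adjusted 0.0138) differed within the division, with r of 0.919 in the 13 libraries and 0.0212 in the 8. H2-Aa and H2-Ab1, the partners of 1 heterodimer, had r = 0.565 (permutation p = 0.00764, adjusted 0.0164; rho = 0.499, permutation p = 0.0224, adjusted 0.0420), with 0.116 in the 13 libraries and 0.890 in the 8.

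**Figure D5:**
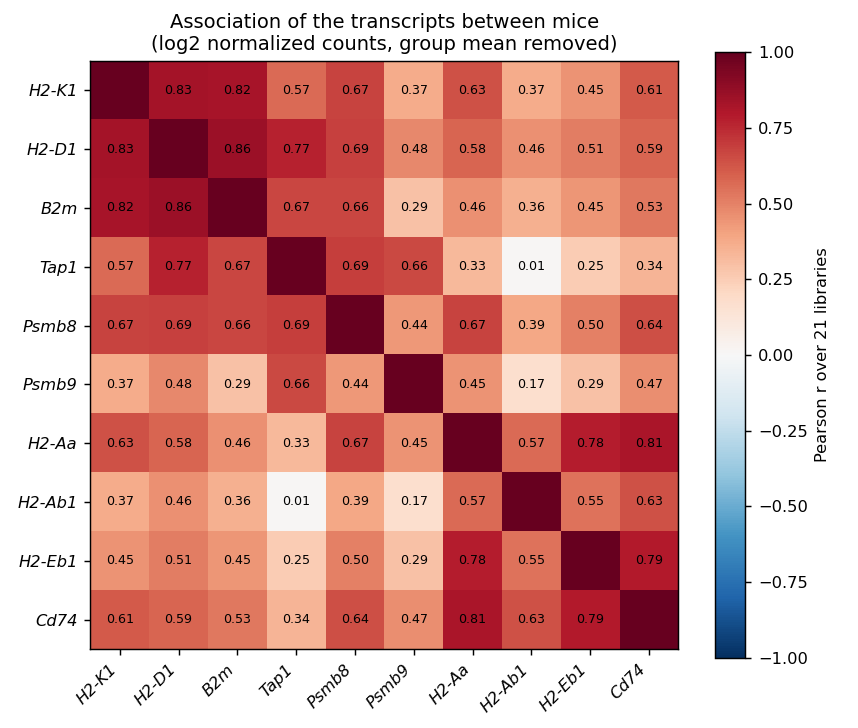
Pearson r between members over 21 libraries, on log2 normalized counts with the group mean removed; each cell prints r. H2-K1, H2-D1 and B2m form a block of 0.82 to 0.86, and H2-Aa, H2-Eb1 and Cd74 one of 0.78 to 0.81, while Tap1 with H2-Ab1 is at 0.01.

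Among 12219 other genes with a median of at least 50 normalized counts, those most like the members between mice were found by the same measure, as a description with no test. For the mean of H2-K1, H2-D1 and B2m they were H2-T23, a nonclassical class I chain (r = 0.828), Reck (0.822), Pnp (0.796), the interferon-induced GTPase Iigp1 (0.791) and Arhgef40 (0.762). For the mean of Tap1, Psmb8 and Psmb9 they were the class I chain H2-Q4 (0.836), Gbp2 (0.798), Arhgdia (0.768), Nlrc5, the class I coactivator (0.765), and Iigp1 (0.752). For the class II mean they were Acot9 (0.813), Fam110a (0.794), Faap20 (0.749), Polr1c (0.748) and Ap1g2 (0.721), of which none is a class II gene. The points share library, depth and normalization.

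The other class I chains gave 12 tested genes of 14. In Active against Inactive muscle 11 of 12 log2 fold changes were positive, with a median of 0.32, and 4 genes were higher at an unadjusted p under 0.05 (H2-Q4, H2-Q7, H2-T23 and Cd1d1). H2-Q10, a class I chain secreted by liver, had a log2 fold change of 1.08 (SE 0.680; edgeR's quasi-likelihood test, adjusted p = 0.607). Its mean was 1068 normalized counts in the 8 libraries rich in liver transcripts and 185 in the other 13. Cd1d1 followed the same division (268 and 98.6). H2-T23 had a log2 fold change of 0.50 (SE 0.113; edgeR's quasi-likelihood test, adjusted p = 0.15) and H2-Q7 one of 0.93 (SE 0.357; same edgeR test, adjusted p = 0.383). H2-T24 had the lowest value, -0.10. In Activity Reduction against Active muscle 10 of 12 were negative, with a median of -0.22.

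Peptide supply and loading outside the members (13 genes, all tested) had a median log2 fold change of 0.05 for Active against Inactive, with 5 higher and 0 lower at an unadjusted p under 0.05. Nlrc5 was highest at 0.68 (SE 0.213; edgeR's quasi-likelihood test, adjusted p = 0.287), with means of 94.98 ± 22.8 (SD, n = 7) in Inactive, 152 ± 46.4 in Active and 130 ± 43.4 in Activity Reduction muscle. Tap2, the partner of Tap1 in the transporter, was next at 0.25 (SE 0.0975; same edgeR test, adjusted p = 0.383). Calr and Canx, chaperones of glycoproteins in the endoplasmic reticulum, had log2 fold changes of -0.03 and 0.02.
Class II loading, processing and control gave 14 tested genes of 17, with a median of -0.07, 0 higher and 1 lower, the lysosomal protease Ctsl (-0.15; edgeR's quasi-likelihood test, adjusted p = 0.411). Ciita, which drives class II transcription, averaged 53.8 ± 16.0 (SD, n = 7) normalized counts in Inactive, 48.2 ± 9.36 in Active and 48.4 ± 9.72 in Activity Reduction muscle. H2-Ea, the alpha chain that would pair with H2-Eb1, had 0 counts in every library. Strain C57BL/6 is known to carry an H2-Ea allele that is not expressed.

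Of the interferon gamma pathway 9 of 10 genes were tested. Ifng itself averaged under 1 normalized count in every group, so no difference in it was detectable at this depth. The log2 fold changes of Active against Inactive ran from -0.14 for the receptor chain Ifngr2 to 0.21 for the transcription factor Irf8 (median 0.06), with 1 higher and 1 lower at an unadjusted p under 0.05. The GTPases that interferon gamma induces gave 12 tested genes of 13, with medians of 0.41 for Active against Inactive, 0.32 for Activity Reduction against Inactive and -0.16 for Activity Reduction against Active. Their summed level was 82.1 to 95.1 CPM in Inactive (median 85.6), 88.9 to 134 in Active (median 115) and 75.9 to 138 in Activity Reduction muscle (median 84.1), so the Inactive and Activity Reduction medians were close while the upper end differed. Unadjusted, 7, 6 and 0 of them passed at 0.05, all higher, and none passed edgeR's adjusted test. Tgtp1 (1.20, SE 0.260; edgeR's quasi-likelihood test, adjusted p = 0.15) and Tgtp2 (1.03, SE 0.294; same edgeR test, adjusted p = 0.247) were highest for Active against Inactive, and Irgm2 (0.03) and Irgm1 (-0.0015) lowest.

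Markers of the cells that could carry class II were measured beside it, and their part in the members' values was not tested. The 10 macrophage markers had a median log2 fold change of 0.36 for Active against Inactive, with 4 higher at an unadjusted p under 0.05, and of -0.40 for Activity Reduction against Active, with 4 lower (Csf1r, Lyve1, Mrc1 and Cd163 in both). Cd74 was lower at an unadjusted p under 0.05 in Activity Reduction muscle against both Active and Inactive. For Activity Reduction against Inactive, the median of the macrophage markers was -0.06, with 4 of 10 positive and 0 past that p in either direction. Their summed level was 26.8 to 44.5 CPM in Inactive, 33.5 to 50.9 in Active and 19.0 to 42.1 in Activity Reduction muscle. Csf1r, the macrophage growth factor receptor, had log2 fold changes of 0.53 and -0.74 (edgeR's quasi-likelihood test, adjusted p = 0.296 and 0.0914). Of 9 dendritic cell markers 6 could be tested, with medians of 0.09, -0.28 and -0.24 in the order Active against Inactive, Activity Reduction against Inactive and Activity Reduction against Active, and summed levels of 7.15 to 9.99, 6.99 to 11.1 and 6.52 to 9.89 CPM in Inactive, Active and Activity Reduction muscle. For Activity Reduction against Active, 3 of these 6 log2 fold changes were positive (Zbtb46 0.12, Xcr1 0.04 and Itgax 0.02) and 3 negative (Cd209a -1.05, Clec10a -0.83 and Clec9a -0.51), and Cd209a and Clec10a were lower at an unadjusted p under 0.05 (edgeR's quasi-likelihood test, adjusted p = 0.309 and 0.113). Of B cell, T and NK cell, and monocyte and neutrophil markers, 1 gene each passed the low-count filter, and no marker of these lists was at 0 in every library. The summed levels of the 3 lists were at most 29.0, 1.09 and 3.05 CPM, among which Ighm was the one B cell marker tested. Ptprc, carried by all leukocytes, had log2 fold changes of 0.09, -0.42 and -0.51 (edgeR's quasi-likelihood test, adjusted p = 0.934, 0.766 and 0.401). Its level was low, at 0.833 to 2.66 CPM in Inactive, 0.825 to 2.66 in Active and 0.693 to 1.43 in Activity Reduction muscle. The 7 endothelial markers had medians of 0.14, -0.03 and -0.17, with 6, 1 and 0 of 7 positive. At an unadjusted p under 0.05, 4 were higher in the first comparison, 0 passed in the second and 3 were lower in the third. The 5 adipocyte markers had medians of 0.05, -0.02 and -0.39. The 24 liver transcripts had medians of 1.20, 0.25 and -0.93, with 24, 22 and 0 of 24 positive, and the 8 skeletal muscle markers of 0.01, 0.05 and 0.07. For Active against Inactive the muscle markers ran from -0.39 to 0.27, 4 positive and 4 negative. Of them, 1 was higher and 2 lower at an unadjusted p under 0.05. Their summed level was 132017 to 143975 CPM in Inactive, 142098 to 162366 in Active and 131107 to 157475 in Activity Reduction muscle.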

How the data were processed

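Poly(A) RNA of 21 gastrocnemius samples, 7 in each of 3 groups taken from the sample labels, was measured. For the deposited table the authors used fastp for trimming, STAR against GRCm39 for alignment and featureCounts for counting, and the deposited counts are whole reads per gene, not normalized. Tool versions and the strand setting are not given in the sources used here. A further deposited table named for normalized counts held identical values and was not used, and 0 sample columns were unassigned. Each library carries a label of its own and stands for 1 mouse.

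Counts were tested with edgeR 4.0.16 (R 4.3.3; filterByExpr, TMM, robust quasi-likelihood fit over all 3 groups, p adjusted over all 16129 genes tested, called at 0.05 with a log2 fold change past 0.25) and, as an alternative, with DESeq2 1.42.0. Printed levels are counts divided by DESeq2 size factors. Member means were compared by exact permutation, and pairs of members by 100000 permutations with a pseudocount of 1. The code was tested on simulated data. Alternatives were another normalization, no filter, 2-group fits, a replicate block, the liver division as covariate or filter, and each library left out. The libraries were divided at the largest gap in mean log2 CPM of the liver list. Depth of 38482455 to 59785132 counts limits the precision of the lowest genes.

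The members and gene lists were chosen with earlier results of these data known. Named by rule were all members, in each other list the genes with the 2 highest and 2 lowest log2 fold changes, as far as needed, and the 5 genes most like each block. Psmb10, Ciita, H2-Ea, Calr, Canx, Cd1d1, Ptprc and the cell type markers were named after their values had been seen. Sequences came from RefSeq promoters, and exon lengths and overlaps from GENCODE on GRCm39.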

Additional observations from a re-analysis of the deposited data

Results flagged for a closer look

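Each member was checked in each group for a single library far from the other 6, by the gap to its nearest neighbor relative to the range. Of 30 such groups 2 stood out, where chance gives about 1 in 20. Psmb8 in Active muscle had 354 normalized counts in Active 4, against 253 in the next library. H2-Aa in Active muscle had 487 in the same library, against 303 in the next. Active 4 was also the highest Active library for H2-K1, H2-D1, B2m, H2-Ab1, H2-Eb1 and Cd74. Without it the log2 fold changes of Active against Inactive for Psmb8 and H2-Aa were 0.51 and -0.24.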

How the results depend on the processing

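Of 240 member fold changes refitted under alternatives other than leaving out a library, 228 kept direction and side of the threshold, 7 passed it in DESeq2 and 5 turned sign. The latter concern Active against Inactive: Cd74 at -0.090 and H2-Eb1 at -0.092 with the liver division as covariate, and Cd74 at -0.23, H2-Eb1 at -0.31 and H2-Ab1 at -0.017 in the 13 libraries with fewer liver transcripts. Genes called were 62, 21 and 115 in DESeq2 on 3 groups and 77, 43 and 139 on 2 groups, for Active against Inactive, Activity Reduction against Inactive and Activity Reduction against Active, with 3 and 4 members called in the first. edgeR on 2 groups called 5 in the first. Activity Reduction against Inactive gave 1 without the filter and 0 in the 13 libraries. Activity Reduction against Active gave 9, and any difference 8, without the filter.

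With single libraries left out, genes called ran from 0 to 1, 0 to 6 and 0 to 24 in the 3 comparisons and from 0 to 12 for any difference, with 0 members called. In the first, 1 came without Active 6. In the second, 6 came without Activity Reduction 3, 4 without Active 3 or Activity Reduction 7, 1 without Inactive 4, and 0 without Active 2 or 4, Activity Reduction 1, 4, 5 or 6, or Inactive 1, 2, 3, 5 or 7. In the third, 24 came without Activity Reduction 7, 10 without Active 3, 5 without Inactive 7, 3 without Activity Reduction 3 or Active 7, 2 without Inactive 1, and 1 without Active 2 or Activity Reduction 2. For any difference, 12 came without Active 3, 8 without Activity Reduction 3 and 5 without Activity Reduction 7. In Active against Inactive, log2 fold changes ran from -0.048 to 0.11 for Cd74, -0.24 to 0.061 for H2-Aa, -0.026 to 0.20 for H2-Ab1 and -0.10 to 0.12 for H2-Eb1. In Activity Reduction against Active, Psmb9 ran from -0.18 to 0.0063 (without Activity Reduction 3). The association of Tap1 with H2-Ab1 turned to -0.0128 without 2 libraries. The cause was not tested.

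The labels give same-numbered libraries no link other than the number. Their deviations correlated at -0.23 to 0.44 (median 0.03), over 0.1 in 7 of 21 pairs, and 3 of 21 libraries correlated best with their own number. The pairs of replicate 1 had r of 0.24, 0.44 and 0.31, and its libraries all held more liver transcripts. Such correlations cannot show whether the numbers mark a pairing. With a replicate block, Activity Reduction against Inactive gave 4 calls, and no member's call changed.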
